A study of Arabidopsis thaliana with 18 samples.

Results

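The 8 genes described here encode the enzymes that reduce sulfate in Arabidopsis thaliana: the ATP sulfurylases ATPS1 to ATPS4, the APS reductases APR1 to APR3 and the sulfite reductase SIR. They were chosen by identifier, by a rule that uses no measured value but with earlier results of these data known. All 8 were found among the 33602 gene models of the deposited tables. All 8 passed the filter on low counts. RNA was sequenced from seedlings grown in liquid medium, with 3 libraries in each of 6 groups, which the series calls biological replicates. The 2 genotypes were wild type of accession Col-4 and nlp2-2, a line with a T-DNA insertion in NLP2 (AT4G35270), a NIN-like transcription factor of nitrate signalling. For each genotype, untreated seedlings were 10 days old, and starved seedlings had then spent 3 days without nitrogen and were 13 days old. The nitrate groups were such starved seedlings supplied with 3 mM nitrate for a time labelled 30, whose unit the labels omit. Starvation is thus tied to age, and with no group kept starved to the later time, nitrate and elapsed time cannot be told apart. The mutant is a single insertion line, and sulfate supply is not given as a variable in the labels.

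Plants take up sulfate and first join it to ATP, a step made by ATP sulfurylase, which gives adenosine 5'-phosphosulfate (APS). APS reductase, the step that is known to carry much of the control of the pathway, reduces APS to sulfite in plastids, and sulfite reductase, an enzyme with a siroheme and an iron-sulfur cluster, takes sulfite to sulfide with electrons from ferredoxin. Sulfide is then joined to O-acetylserine to make cysteine, a point at which sulfur assimilation depends on the nitrogen and carbon of the amino acid backbone. Nitrite reductase is built on the same cofactors as sulfite reductase.

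NLP2 was read in every library and was lower in nlp2 in all 3 conditions. Its level, in counts per 1000000 reads on library sizes scaled by TMM (CPM), lay between 24.2 and 29 in untreated wild type and between 3.62 and 9.4 in untreated nlp2. It lay between 56.2 and 63.6 against 9.25 and 14.5 after starvation, and between 40.9 and 50 against 8.49 and 16.8 after nitrate. Libraries held 14684639 to 25545031 counted reads, of which 0.1558% to 0.3893% fell in the 8 genes. Libraries numbered 1 of both nitrate groups and of untreated nlp2 stood apart from the other two of their group: the chi-square per degree of freedom over genes was 61.6 and 39.3 for wild type nitrate replicate 1 against 9.83 between replicates 2 and 3, 44.1 and 32.4 against 6.55 in nlp2 nitrate, and 39.6 and 29.7 against 17 in untreated nlp2. Values with replicates 2 and 3 only, a choice made after seeing the data, are given beside the calls on the 8 genes, the family sums and the list counts they bear on. Seedling markers were present: all 6 leaf and all 6 root markers had reads in every group. The summed level of the leaf markers was 28231 to 33104 CPM in untreated wild type, 10968 to 13333 CPM after starvation and 10591 to 11545 CPM after nitrate. In nlp2 it was 21341 to 33176, 8836 to 11462 and 8769 to 9770 CPM. The sum of the root markers stayed between 3372 and 4231 CPM over all 18 libraries, but single root markers were called. With starvation 1 of 6 was lower in wild type, and 1 was higher and 1 lower in nlp2. With nitrate 1 was higher in each genotype. In RNA of seedlings, fewer cells of a type and less RNA per cell cannot be told apart, and the part of the leaf markers' decline in the starvation results was not tested.

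miR395 is the microRNA of sulfate starvation in Arabidopsis, known to cut transcripts of ATPS1, ATPS3, ATPS4 and the sulfate transporter SULTR2;1. Its mature forms and the best matching site of each ATP sulfurylase are shown because the 4 ATP sulfurylases differed in their response. The reference (RefSeq, TAIR10.1) holds 6 mature miR395 loci with 2 sequences that share 1 seed, bases 2 to 8, here in capitals.
miR395a, miR395d and miR395e: cUGAAGUGuuugggggaacuc
miR395b, miR395c and miR395f: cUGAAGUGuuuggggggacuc
The sites are given 5′ to 3′ on the transcript, with capitals where a base does not pair with miR395a, miR395d and miR395e and with G:U counted as a mismatch. All 4 lie in coding sequence.
ATPS1, chr3:8113164-8113184, forward strand: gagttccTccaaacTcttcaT
ATPS2, chr1:6915836-6915856, reverse strand: gCTCtcTccTaaacaGCtTag
ATPS3, chr4:8414958-8414978, reverse strand: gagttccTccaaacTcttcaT
ATPS4, chr5:17591121-17591141, reverse strand: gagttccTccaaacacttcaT
Against miR395a, ATPS1 and ATPS3 carried the same 21-base site with 3 mismatches, ATPS4 had 2 mismatches, and the closest stretch of ATPS2 had 8. Against the miR395b sequence, ATPS1 and ATPS3 had 4, ATPS4 had 3 and ATPS2 had 8. The fewest mismatches to miR395a in any transcript were 9 for APR1, 8 for APR2, 10 for APR3 and 8 for SIR. Of 26712 protein-coding genes searched, 8 (0.0299%) had a site with at most 3 mismatches to miR395a. The 6 MIR395 gene models, 93 to 112 bases long in the files, had 0 reads over all 18 libraries, and poly(A) libraries are not made to measure mature miRNA.

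The 250 bases before the annotated start of the 3 APS reductase genes and of SIR are shown because these genes all rose after nitrate (RefSeq, TAIR10.1, 5′ to 3′ toward the gene). ATPS1 and ATPS3 rose as well, and their windows are counted below but not shown. Capitals mark GAGAC, the core of the sulfur-responsive element, ACGTG, a core recognised by bZIP factors such as HY5, and GAATC, the core bound by the NIGT1 repressors of nitrate signalling, each searched on both strands. A further search, CTT followed after any 10 bases by AAG, matches the outer parts of the element bound by NIN-like proteins. CACGTG, the G-box, was searched as well and overlaps ACGTG.
APR1, chr4:2324628-2324877, forward strand: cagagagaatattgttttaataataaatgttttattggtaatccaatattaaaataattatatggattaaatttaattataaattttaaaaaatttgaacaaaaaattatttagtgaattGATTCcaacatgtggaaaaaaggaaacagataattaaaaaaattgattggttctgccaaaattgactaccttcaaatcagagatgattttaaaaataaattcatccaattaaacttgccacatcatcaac
APR2, chr1:22977886-22978135, reverse strand: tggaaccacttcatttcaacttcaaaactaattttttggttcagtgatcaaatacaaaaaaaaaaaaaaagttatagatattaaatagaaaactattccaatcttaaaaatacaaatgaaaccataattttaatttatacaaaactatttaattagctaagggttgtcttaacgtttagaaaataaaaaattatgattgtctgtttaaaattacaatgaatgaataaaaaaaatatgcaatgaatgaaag
APR3, chr4:11659168-11659417, reverse strand: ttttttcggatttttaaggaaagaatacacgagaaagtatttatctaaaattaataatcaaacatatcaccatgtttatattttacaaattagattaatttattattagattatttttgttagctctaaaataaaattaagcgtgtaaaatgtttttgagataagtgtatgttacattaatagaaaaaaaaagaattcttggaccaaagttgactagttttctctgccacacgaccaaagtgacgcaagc
SIR, chr5:1318824-1319073, forward strand: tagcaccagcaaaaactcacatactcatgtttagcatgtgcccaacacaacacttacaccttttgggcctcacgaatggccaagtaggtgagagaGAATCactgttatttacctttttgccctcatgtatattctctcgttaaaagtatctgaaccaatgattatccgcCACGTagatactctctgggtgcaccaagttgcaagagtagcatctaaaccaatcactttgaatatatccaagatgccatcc
APR2 and APR3 held none of these motifs in this window. APR1 held GAATC at 130 bases before its start, and SIR held GAATC at 155 and ACGTG at 81 bases before its start. Over all 8 genes GAGAC was in 0, CACGTG in 0, ACGTG in 2 (SIR and ATPS4), GAATC in 3 (APR1, SIR and ATPS2) and the CTT and AAG pair in 2 (ATPS2 and ATPS4). Among 27443 promoters of the same length, 25.8% held GAGAC, 6.49% CACGTG, 22.9% ACGTG, 38.8% GAATC and 8.02% the CTT and AAG pair. The matches describe these windows and are not sites of binding.

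Nitrate raised 6 of the 8 genes in each genotype, where 11.2% of all genes tested rose in wild type and 9.36% in nlp2. The rises ran from 1.73-fold for ATPS1 to 4.1-fold for APR2 in wild type, and ATPS2 and ATPS4 were not called. Starvation alone raised APR1 by 1.92-fold and APR3 by 2.08-fold in wild type, whereas APR2 passed the test at the nitrate step and not at the starvation step. No difference between nlp2 and wild type passed the test for any of the 8 genes. In what follows a gene is said to rise or fall where its adjusted p was below 0.05 (edgeR quasi-likelihood test on counts, Benjamini-Hochberg over 21347 genes), levels carry the SD of 3 libraries and log2 fold changes the standard error of the fit.

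**Figure D1:**
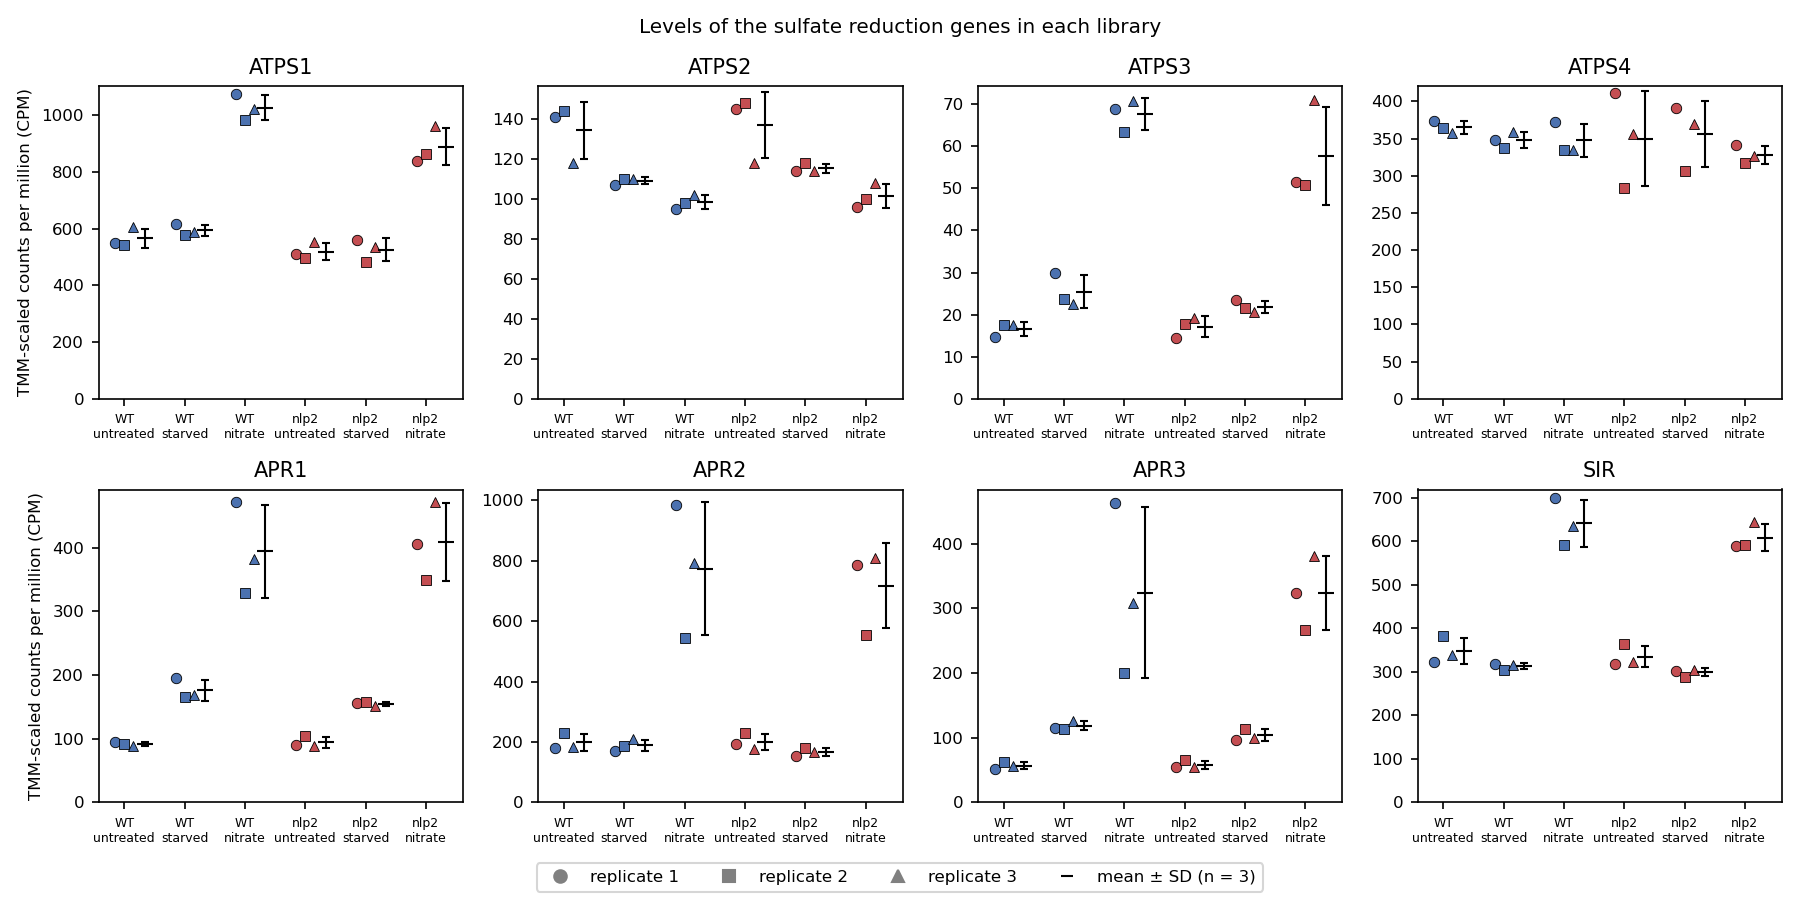
Level of each gene in every library (TMM-scaled CPM, linear axis from 0) for the 6 groups. Circles, squares and triangles are replicates 1, 2 and 3, and the bar beside them is the mean ± SD of 3 libraries. APR1, APR2, APR3, SIR, ATPS1 and ATPS3 were higher in all nitrate libraries than in any other library of the genotype, and ATPS4 was not.

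Among the ATP sulfurylases, which open the pathway, 1 gene held the largest share of the family's transcripts in every group. ATPS1 (AT3G22890), the main plastid form, stands on chromosome 3 from 8112614 to 8115024. It measured 550, 542 and 604 CPM in untreated wild type, 615, 577 and 589 CPM after starvation, and 1073, 984 and 1022 CPM after nitrate. In nlp2 the values were 509, 496 and 552 CPM, then 559, 482 and 536 CPM, then 838, 864 and 962 CPM. All 6 nitrate libraries lay above all 12 others, while starved and untreated libraries overlapped in each genotype. Nitrate raised it by 0.79 ± 0.09 on the log2 scale in wild type (adjusted p = 1.9e-06); the mutant gave 0.76 ± 0.09 (adjusted p = 3.91e-06). The rises were 0.78 (adjusted p = 0.000251) and 0.85 (adjusted p = 0.000128) with replicates 2 and 3 only. The change with starvation was 0.07 ± 0.09 (adjusted p = 0.6) and 0.02 ± 0.09 (adjusted p = 0.905).

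ATPS3 (AT4G14680, chromosome 4, 8413263 to 8415650), the least abundant of the family, moved most. It measured 14.6, 17.6 and 17.6 CPM in untreated wild type, 29.9, 23.7 and 22.6 CPM after starvation, and 68.9, 63.4 and 70.7 CPM after nitrate. In nlp2 it measured 14.4, 17.7 and 19.3 CPM, 23.5, 21.5 and 20.7 CPM, and 51.4, 50.7 and 71.1 CPM. The 3 conditions did not overlap in either genotype. Starvation raised it by 0.62 ± 0.14 in wild type (log2, adjusted p = 0.00312), and the value in nlp2 was 0.35 ± 0.14 (adjusted p = 0.0716). With replicates 2 and 3 only, the wild type value was 0.39 (adjusted p = 0.0654) and the call was lost, and the mutant gave 0.18 (adjusted p = 0.402). Nitrate raised it by 1.41 ± 0.14 in wild type (adjusted p = 4.49e-07) and 1.40 ± 0.14 in the mutant (adjusted p = 7.3e-07), so that it stood 4.08-fold above untreated seedlings in wild type and 3.36-fold in nlp2. From replicates 2 and 3 only, nitrate gave 1.53 in each genotype (adjusted p = 3.38e-06 and 3.9e-06).

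The other two ATP sulfurylases did not rise. ATPS2 (AT1G19920, chromosome 1, 6914518 to 6916823), the form of the family known to be made in the cytosol as well as in plastids, measured 141, 144 and 118 CPM in untreated wild type, 107, 110 and 110 CPM after starvation, and 94.9, 98.0 and 102 CPM after nitrate. The mutant gave 145, 148 and 118 CPM, 114, 118 and 114 CPM, and 96.1, 99.8 and 108 CPM. Its mean was lower in each later condition, and untreated and starved libraries of nlp2 overlapped. It fell with starvation in wild type (-0.30 ± 0.09, adjusted p = 0.021), a call lost when any of 5 single wild type libraries was left out (adjusted p of 0.051 to 0.0685) and with replicates 2 and 3 only (-0.26, adjusted p = 0.112). In nlp2 the change was -0.25 ± 0.09 (adjusted p = 0.0556), -0.20 with replicates 2 and 3 only (adjusted p = 0.234), and -0.24 with the replicate number as a block (adjusted p = 0.0305). The values for nitrate against starvation were -0.15 ± 0.09 (adjusted p = 0.306) and -0.19 ± 0.09 (adjusted p = 0.187). Over both steps it fell by 0.45 ± 0.09 in wild type (adjusted p = 0.000773) and by 0.44 ± 0.09 in the mutant (adjusted p = 0.00111).

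ATPS4 (AT5G43780, chromosome 5, 17589394 to 17591737), a plastid form, measured 374, 364 and 357 CPM, 348, 337 and 359 CPM, and 373, 335 and 335 CPM in wild type. In nlp2 it measured 411, 283 and 356 CPM, 391, 306 and 370 CPM, and 341, 317 and 326 CPM. The groups overlapped in every comparison, and log2 changes for the 2 steps ran from -0.12 ± 0.11 for nitrate in nlp2 to 0.02 ± 0.11 for starvation in nlp2. Of the 3 genes with a near match to miR395, ATPS1 and ATPS3 rose after nitrate, and ATPS4, with the fewest mismatches to either sequence, was not called. SULTR2;1, which also holds such a site with 3 mismatches, gave 0.17 ± 0.12 for nitrate in wild type (adjusted p = 0.358). What the sites have to do with these levels was not tested.

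Of the 8 genes, APR2 had the largest log2 change with nitrate and APR3 the largest over both steps, in each genotype. APR1 (AT4G04610, chromosome 4, 2324878 to 2327064) measured 94.2, 92.3 and 88.7 CPM in untreated wild type, 195, 165 and 168 CPM after starvation, and 472, 328 and 382 CPM after nitrate. In nlp2 it measured 90.0, 104 and 88.8 CPM, 156, 157 and 151 CPM, and 406, 349 and 472 CPM. It rose at each of the 2 steps and no groups overlapped within a genotype. Starvation raised it by 0.94 ± 0.13 (log2) in wild type (adjusted p = 1.51e-05) and 0.72 ± 0.13 in the mutant (adjusted p = 0.00024). Nitrate added 1.16 ± 0.13 (adjusted p = 1.48e-06) and 1.40 ± 0.13 (adjusted p = 1.82e-07). On replicates 2 and 3 only, starvation gave 0.87 (adjusted p = 0.000332) and 0.67 (adjusted p = 0.00222), and nitrate 1.08 (adjusted p = 5.76e-05) and 1.42 (adjusted p = 6.24e-06).

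APR2 (AT1G62180, chromosome 1, 22975530 to 22977885), the isoform known to supply most APS reductase activity in leaves, measured 180, 231 and 184 CPM in untreated wild type, 171, 186 and 209 CPM after starvation, and 984, 545 and 793 CPM after nitrate. In nlp2 it measured 193, 230 and 178 CPM, 152, 180 and 166 CPM, and 787, 555 and 809 CPM. Starved and untreated libraries overlapped, whereas the lowest nitrate library lay well above them all. Starvation gave -0.07 ± 0.18 in wild type (adjusted p = 0.805) and -0.27 ± 0.18 in the mutant (adjusted p = 0.289). Nitrate raised it by 2.04 ± 0.19 in wild type (adjusted p = 2.61e-07), 4.1-fold, and by 2.11 ± 0.19 in nlp2 (adjusted p = 2.14e-07). Wild type replicate 1 was the highest library, and with replicates 2 and 3 only the rise was 1.75 in wild type (adjusted p = 0.000154) and 1.99 in the mutant (adjusted p = 6.86e-05). A long noncoding RNA on the opposite strand, AT1G08477, overlaps 720 bases of the APR2 transcript in the reference. The labels do not state whether counting used strand, and without it reads of the pair cannot be told apart.

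APR3 (AT4G21990, chromosome 4, 11657008 to 11659167) was the least abundant of the APS reductases and followed APR1. It measured 51.5, 62.9 and 56.0 CPM in untreated wild type, 115, 114 and 126 CPM after starvation, and 463, 200 and 308 CPM after nitrate. In the mutant the values were 53.9, 65.2 and 54.5 CPM, 96.6, 114 and 100 CPM, and 323, 266 and 381 CPM. No groups overlapped within a genotype, though the wild type nitrate libraries spread more than 2-fold. Starvation raised it by 1.06 ± 0.21 (adjusted p = 0.000936) and 0.84 ± 0.21 (adjusted p = 0.00527), and by 1.01 and 0.84 with replicates 2 and 3 only (adjusted p = 0.00524 and 0.0148). Nitrate raised it by 1.45 ± 0.21 in wild type (adjusted p = 5.97e-05), by 1.07 with replicates 2 and 3 only (adjusted p = 0.004), and by 1.64 ± 0.21 in nlp2 (adjusted p = 2.11e-05), where replicates 2 and 3 gave 1.60 (adjusted p = 0.000336). Paired by number, the wild type ratio of nitrate to starved was 2.01, 0.81 and 1.29 on the log2 scale for replicates 1, 2 and 3. The wild type starved libraries have no planting date in their labels, so these pairs rest on the number alone. Over both steps APR3 stood 5.70-fold above untreated seedlings in wild type and 5.59-fold in nlp2.

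SIR (AT5G04590, chromosome 5, 1319074 to 1323364), a single gene, measured 323, 382 and 339 CPM in untreated wild type, 318, 305 and 316 CPM after starvation, and 698, 591 and 634 CPM after nitrate. The nlp2 libraries gave 318, 363 and 323 CPM, 302, 288 and 305 CPM, and 589, 591 and 643 CPM. All starved libraries lay below all untreated ones of the genotype, but the difference did not pass the test (-0.15 ± 0.09, adjusted p = 0.214, and -0.16 ± 0.09, adjusted p = 0.179). The nitrate libraries lay above all others. The rise with nitrate was 1.03 ± 0.09 in wild type (adjusted p = 8.15e-08) and 1.02 ± 0.09 in the mutant (adjusted p = 1.18e-07), or 2.05-fold and 2.03-fold. It was 0.97 (adjusted p = 1.66e-05) and 1.06 (adjusted p = 8.94e-06) without the libraries numbered 1. In both genotypes all same-numbered ratios of nitrate to starved lay between 0.96 and 1.13 on the log2 scale. The wild type pairs again rest on the number alone.

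**Figure D2:**
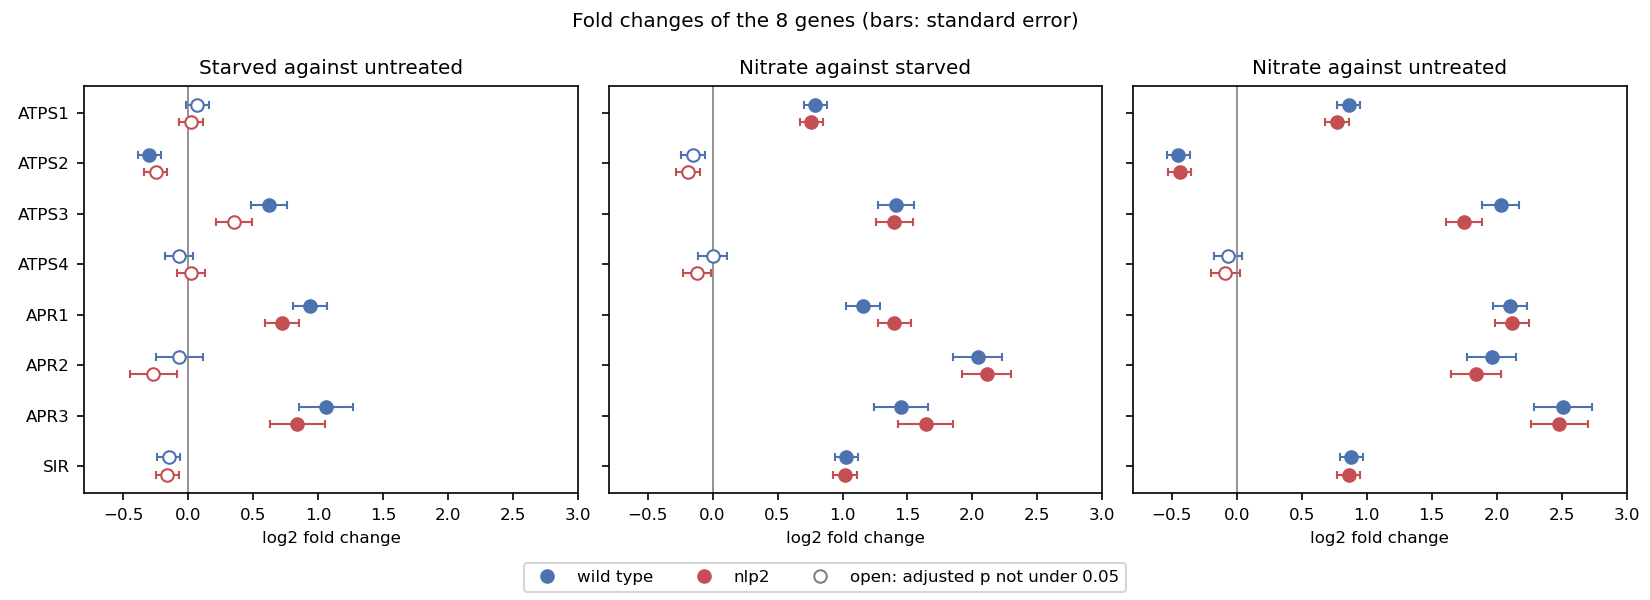
Log2 fold change of each gene for starved against untreated, nitrate against starved and nitrate against untreated seedlings, in wild type (blue) and nlp2 (red). Bars are the standard error of the fit over 18 libraries, and filled points passed an adjusted p of 0.05. APR1 and APR3 rose at both steps, APR2, SIR and ATPS1 only passed the test at the nitrate step, and ATPS4 lay near 0 throughout.

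Read against the whole transcriptome, starvation in wild type raised 3 of the 8 genes (APR1, APR3 and ATPS3), where 13.8% of all genes tested rose, and lowered 1 (ATPS2), where 15.3% fell. The median log2 change of the 8 genes was 0.00 against 0.02 for all genes. In nlp2 starvation raised 2 (APR1 and APR3) with 14.5% of all genes, at a median of 0.02 against 0.02. Such counts on so broad a response tell little of the 8 genes as a set at this step.

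For the 6 of 8 raised by nitrate in wild type the background was 11.2%, and the median change of all 8 was 1.10 against -0.00 for all genes. In nlp2 it was 9.36%, with a median of 1.21 against -0.01. None fell. From untreated to nitrate seedlings, a comparison that shares its libraries with the 2 steps, 6 were higher and ATPS2 was lower in each genotype. The background was 21.7% higher and 19.8% lower in wild type, and 19.6% higher and 19% lower in nlp2. The 8 genes were chosen with earlier results of these data known.

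Summed per length of transcript, the APS reductases gained on the ATP sulfurylases. The 3 APR genes together measured 196 ± 19.3 CPM per kb in untreated wild type, 273 ± 11 after starvation and 843 ± 239 after nitrate. In nlp2 they measured 199 ± 23.1, 240 ± 13.3 and 820 ± 143 CPM per kb. The 4 ATP sulfurylases together measured 620 ± 8.37, 617 ± 15.1 and 882 ± 37.6 CPM per kb in wild type and 587 ± 40.8, 584 ± 47.6 and 788 ± 45.5 CPM per kb in nlp2. The APR sum lay well below the ATPS sum before nitrate, and after nitrate the means of the sums differed by less than the SD of the APR sum in wild type and in nlp2. With replicates 2 and 3 only, the wild type means after nitrate were 723 CPM per kb for APR and 862 for ATPS, and those of nlp2 were 801 for each. SIR alone measured 158 ± 13.9, 142 ± 3.26 and 291 ± 24.3 CPM per kb in wild type. Lengths are those of the deposited models, and of the 8 only that of APR3 equals its reference transcript. That of SIR is 2205 bases against 3325 in the reference, of APR2 1766 against 1538 and of ATPS3 1633 against 1917. Levels per length, and the sums, order and shares drawn from them, are uncertain to that extent.

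In untreated wild type the order per length ran ATPS1 (321 ± 19.2 CPM per kb), ATPS4 (214 ± 4.9), SIR (158 ± 13.9), APR2 (112 ± 16.1), ATPS2 (74.5 ± 7.81), APR1 (52.1 ± 1.58), APR3 (31.8 ± 3.21) and ATPS3 (10.2 ± 1.04). With the deposited lengths, the SDs of neighbours in this order did not meet. After nitrate it ran ATPS1 (582 ± 25.2), APR2 (438 ± 125), SIR (291 ± 24.3), APR1 (224 ± 41.6), ATPS4 (204 ± 13), APR3 (181 ± 74), ATPS2 (54.6 ± 1.96) and ATPS3 (41.4 ± 2.33). There, with the deposited lengths, APR2 lay below ATPS1 and above SIR in every library. It measured 557, 309 and 449 CPM per kb, against 608, 558 and 579 for ATPS1 and 316, 268 and 288 for SIR. Its SD met those of both and not that of ATPS4. APR1, ATPS4 and APR3 differed by less than their spread. The reference transcript is shorter than the deposited model for APR2 and longer for SIR and ATPS1. Reference lengths would thus raise APR2 against SIR and ATPS1, and can change both orders given here.

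The isoforms did not keep their shares. APR2 made up 57.1% ± 2.45 of the APR family per length in untreated wild type, 39.1% ± 3.13 after starvation and 51.9% ± 1.43 after nitrate, and 56.8% ± 1.2, 39.1% ± 1.28 and 49.4% ± 2.3 in nlp2. Its lowest untreated library was above its highest starved library. Shares within a family are not independent of each other. With starvation APR1 and APR3 rose, and APR2 itself was not called, at -0.07 in wild type and -0.27 in nlp2 (log2). What the level of each gene adds to the lower share of APR2 was not tested. The share of APR1 went the other way, from 26.7% ± 2.54 to 36.7% ± 3.72 and 27.1% ± 3.15 in wild type. ATPS1 held 51.7% ± 2.42, 54.5% ± 0.685 and 66% ± 0.179 of the ATPS family in wild type and 50.3% ± 3.19, 51% ± 0.345 and 63.9% ± 1.25 in nlp2. ATPS4 went from 34.6% ± 1.11 to 23.1% ± 0.667 of the family in wild type over both steps, and ATPS3 from 1.64% ± 0.168 to 4.7% ± 0.211. With replicates 2 and 3 only, APR2 held 58%, 40.8% and 52.2% in wild type and ATPS1 held 52.4%, 54.2% and 66%. The shares were chosen after their values were seen and are given without a test.

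**Figure D3:**
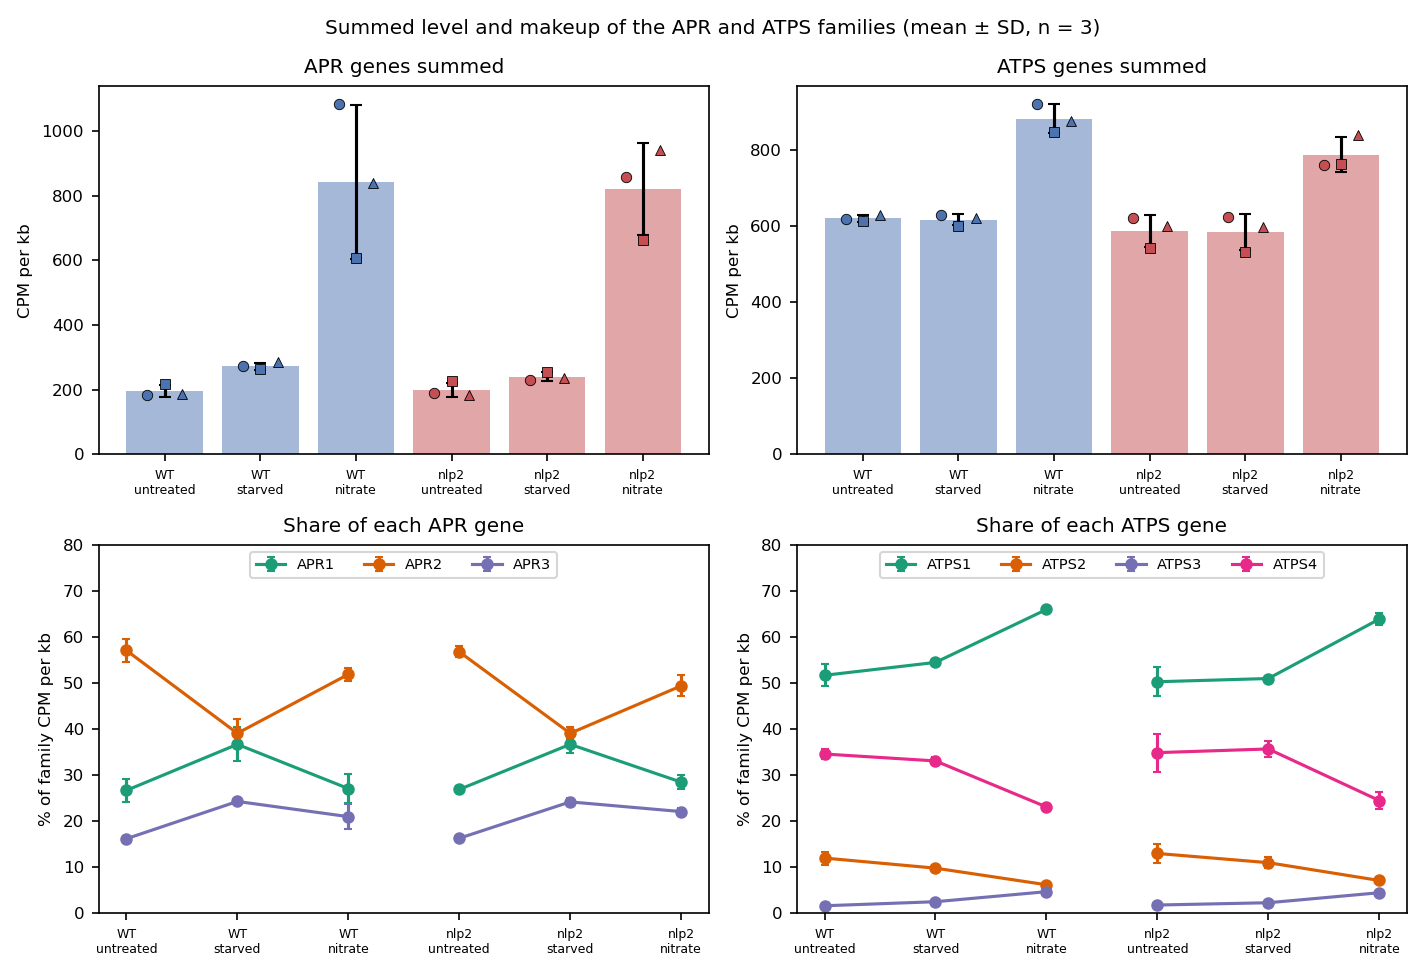
Top, summed level of the 3 APR genes (left) and the 4 ATPS genes (right) in CPM per kb, with bars for the mean, error bars for the SD and circles, squares and triangles for replicates 1, 2 and 3. Bottom, the share of each gene in its family (%, mean ± SD, n = 3): APR2 dropped to 39.1% in starved seedlings of each genotype, and ATPS1 reached 66% in wild type and 63.9% in nlp2 after nitrate.

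The series compares nlp2 with wild type, and for the sulfate reduction genes that comparison found no call. None of the 8 was called in untreated seedlings (edgeR, 0 at an unadjusted p under 0.05, where 6.02% of all genes were, and 0.361% of all genes called), with log2 differences of nlp2 to wild type from -0.12 to 0.05. None was called after starvation (0 at an unadjusted p under 0.05 against 5.8% of all genes, and 0.365% of all genes called), with differences from -0.21 to 0.08. After nitrate none was called (1, ATPS1, at an unadjusted p under 0.05 against 7.3% of all genes, and 0.787% of all genes called), with differences from -0.23 to 0.05. DESeq2 called none of the 8 in any of these comparisons. The 95% intervals were widest for APR3, between -0.63 and 0.47 over the 3 conditions. They were narrower for SIR (-0.26 to 0.11 after nitrate) and ATPS2 (-0.11 to 0.28 after starvation). With replicates 2 and 3 only, still none was called, and differences ran from -0.18 to 0.08 untreated, from -0.20 to 0.08 starved and from -0.13 to 0.36 after nitrate. There APR3 gave 0.36 (adjusted p = 0.711) and APR1 0.22 (adjusted p = 0.716) after nitrate, against 0.00 and 0.05 with all libraries.

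ATPS1 came nearest to a call. Its log2 difference was -0.12 ± 0.09 in untreated, -0.18 ± 0.09 in starved and -0.21 ± 0.09 in nitrate seedlings, with an adjusted p of 1, 0.9 and 0.534. It was lower in nlp2 in all 9 same-numbered pairs of libraries, by 0.09 to 0.36 (log2), though 5 of the wild type libraries (starved replicates 1 to 3 and nitrate replicates 1 and 2) have no planting date in their labels. The pairs were counted for ATPS1 only, without a share over all genes. With the replicate number as a block, the edgeR test gave an adjusted p of 0.64 untreated, 0.407 starved and 0.176 after nitrate. The nlp2 libraries were all below the wild type ones after starvation and after nitrate, and overlapped with them in untreated seedlings. APR1 and APR3 in starved seedlings (-0.19 ± 0.12 and -0.19 ± 0.21) and ATPS2 (0.08 ± 0.09) also had no overlap, with an adjusted p of 1. Over the 8 genes the genotypes did not overlap for 0, 4 and 1 genes in untreated, starved and nitrate seedlings, where 8.47%, 12.6% and 12.8% of all genes tested did not.

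The responses themselves were also compared. The difference between the genotypes in the starvation response lay between -0.26 and 0.09 on the log2 scale over the 8 genes, and 95% intervals spanned -0.84 to 0.43. In the nitrate response it lay between -0.12 and 0.24, with intervals spanning -0.46 to 0.81. No member was called for either (edgeR, 0 of 8 at an unadjusted p under 0.05, where 1.85% and 1.47% of all genes were), where 0% and 0% of all genes were called, and DESeq2 called none of the 8. With replicates 2 and 3 only, the differences lay between -0.21 and 0.13 for starvation and between -0.01 and 0.53 for nitrate, with APR3 at 0.53 and APR1 at 0.34, all at an adjusted p of 1. For SIR the nitrate responses of the genotypes differed by -0.01 ± 0.13 (interval -0.27 to 0.25). For APR1 they differed by 0.24 ± 0.18 (interval -0.13 to 0.61) and for APR3 by 0.19 ± 0.29 (interval -0.43 to 0.81).

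The genes around sulfate reduction moved unevenly. Of 12 sulfate transporters, starvation in wild type raised 5 and lowered 2, and nitrate then raised 5 and lowered 0 (median 0.38 against -0.00 for all genes). In nlp2 the counts were 4 and 2, then 4 and 0. With replicates 2 and 3 only, they were 5 and 3, then 4 and 0, in wild type. Those of nlp2 were then 4 and 3, then 4 and 0. Of all genes tested, 13.8% rose and 15.3% fell with starvation in wild type, and 11.2% and 10.2% with nitrate. For nlp2 these shares were 14.5% and 15.7%, then 9.36% and 9.23%. SULTR1;2, the main root uptake carrier, fell from 57 to 24.6 CPM with starvation (-1.21 ± 0.18, adjusted p = 6.49e-05) and rose to 98.9 CPM with nitrate (2.01 ± 0.18, adjusted p = 2.64e-07). SULTR4;1, which releases sulfate from the vacuole, rose at both steps, by 0.87 ± 0.11 (adjusted p = 1.29e-05) and 0.77 ± 0.11 (adjusted p = 4.75e-05). SULTR3;4 did so as well, by 1.57 ± 0.10 and 0.57 ± 0.09.

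APS kinases and PAPS handling genes form the branch that competes for APS and feeds sulfation. Starvation raised 3 of 6 in each genotype, and nitrate raised 2 and lowered 1 in each. Without the libraries numbered 1, the counts were 2 in each genotype for starvation, and nitrate raised 3 and lowered 0 in wild type and raised 5 and lowered 1 in nlp2. APK1, a plastid APS kinase, rose with starvation from 67.3 to 113 CPM in wild type (0.75 ± 0.14, adjusted p = 0.000534), and APK4 rose with starvation (0.62 ± 0.09, adjusted p = 5.63e-05) and fell with nitrate (-0.32 ± 0.09, adjusted p = 0.0178, and -0.28 at 0.0516 with replicates 2 and 3 only). Of 8 cysteine synthesis genes, starvation raised 2 and lowered 2 in each genotype, and nitrate raised 3 in wild type and 4 in nlp2 and lowered 0. When the libraries numbered 1 were left out, starvation raised 0 in wild type and 1 in nlp2 and lowered 2 in each, and nitrate raised 4 in each. SERAT2;1, a plastid serine acetyltransferase, rose from 35.2 to 70.9 CPM in wild type (1.01 ± 0.13, adjusted p = 1.63e-05), and SERAT2;2 rose by 0.60 ± 0.10 (adjusted p = 0.000238). OASB and OASA1, which join sulfide to O-acetylserine, fell with starvation by 0.59 ± 0.09 and 0.45 ± 0.09 (adjusted p = 4.55e-05 and 0.00112) and gave 0.16 ± 0.09 each with nitrate (adjusted p = 0.208 and 0.245). OASC, which makes the same reaction in mitochondria, rose with starvation in wild type from 50.1 to 64.2 CPM (0.36 ± 0.10, adjusted p = 0.00764, and 0.25 at 0.0545 with replicates 2 and 3 only). The sulfite oxidase SOX was not called at either step (0.08 and 0.03 in wild type), and of the 2 glutathione synthesis genes only GSH2 passed the test, with nitrate in wild type (0.25, adjusted p = 0.0291).

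Several genes of the cofactor and electron supply that sulfite reductase shares with nitrite reductase had larger log2 changes with nitrate than SIR. Of 2 siroheme synthesis genes, 1 rose with nitrate in each genotype. UPM1, which makes the siroheme precursor, rose from 59.3 to 1176 CPM with nitrate in wild type (4.31 ± 0.10, adjusted p = 9.81e-16). SIRB, the ferrochelatase that completes siroheme, gave 19.8 and 19.2 CPM (-0.05 ± 0.12, adjusted p = 0.828), and 20.9 and 19 CPM in the mutant (-0.14 ± 0.12, adjusted p = 0.507). All 3 genes of root-type ferredoxin supply rose in each genotype, at a median of 3.67 in wild type and 3.32 in nlp2, and all 3 genes of nitrate and nitrite reduction rose. NIR1, nitrite reductase, rose from 68.2 to 4001 CPM (5.88 ± 0.13, adjusted p = 2.58e-16) and NIA1, nitrate reductase, from 100 to 1765 CPM (4.14 ± 0.11, adjusted p = 2.68e-15). FD3, the root ferredoxin, was the single gene of these lists called lower in nlp2 after nitrate (-0.44 ± 0.10, adjusted p = 0.0426).

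Of 8 markers of sulfur deficiency, 7 were tested, and BGLU28, at 0.151 to 0.347 CPM over the group means, was not. Starvation raised 7 in wild type (median 1.44 against 0.02) and 4 in nlp2 (median 1.15), and nitrate raised 6 in each (medians 1.45 and 1.71). Over replicates 2 and 3 only, the counts for wild type were 5 and 4 (medians 1.43 and 1.06) and those for nlp2 were 4 and 6. Wild type nitrate libraries spread widely for these genes, with LSU3 between 11.6 and 45 CPM, LSU2 between 37.2 and 131 CPM and SHM7 between 103 and 223 CPM. SDI1, a repressor of glucosinolate synthesis, went from 1.37 to 16.6 and 36.6 CPM in wild type, by 3.57 ± 0.33 and 1.15 ± 0.24 (adjusted p = 3.83e-07 and 0.00202). SDI2 went from 18.9 to 33 and 93 CPM, by 0.80 ± 0.17 and 1.5 ± 0.16 (adjusted p = 0.00122 and 1.71e-06). SDI1 was lower in starved nlp2 than in starved wild type (-1.26 ± 0.26, adjusted p = 0.0488), a call lost with replicates 2 and 3 only (-1.40, adjusted p = 0.165). Among 8 regulators that act on sulfate reduction genes, starvation in wild type raised 3 and lowered 1, and nitrate raised 1 and lowered 1 (2 and 1, then 1 and 1, with replicates 2 and 3 only). MYB34 rose with starvation (0.88 ± 0.14, adjusted p = 0.00012), MYB51 fell (-1.0 ± 0.15, adjusted p = 5.27e-05), and HY5, an activator of APR1 and APR2 in light, fell with nitrate (-0.57 ± 0.12, adjusted p = 0.0023).

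**Figure D4:**
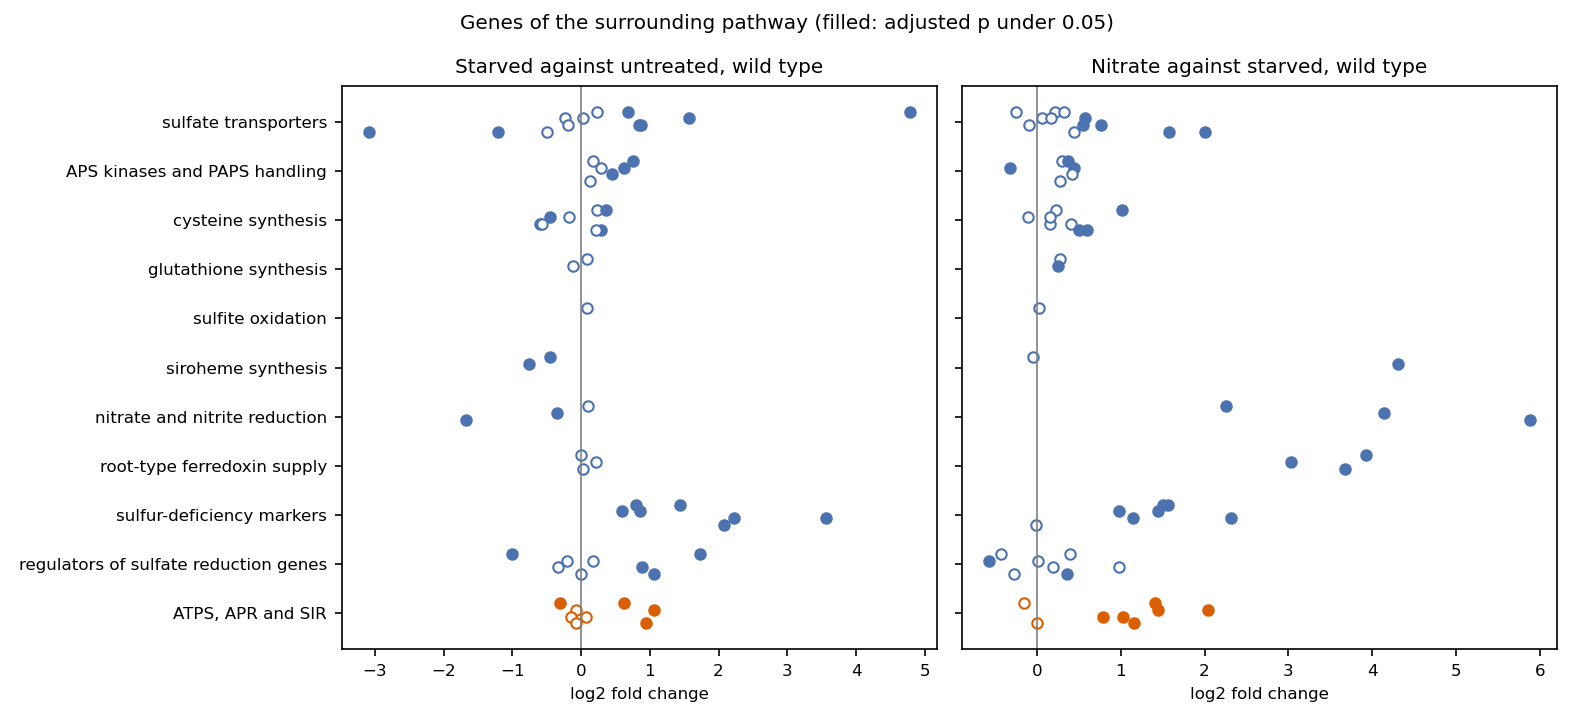
Log2 fold change in wild type of each gene in the surrounding lists, with starved against untreated on the left and nitrate against starved on the right. Each point is 1 gene, orange for the 8 sulfate reduction genes, and filled points passed an adjusted p of 0.05. Nitrate and nitrite reduction and root-type ferredoxin genes lie far to the right after nitrate, beyond APR2 at 2.04, and 7 of 7 sulfur-deficiency markers lie above 0 after starvation.

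The patterns over the 6 group means were compared with 7586 other genes, as the root mean square difference of centred log2 CPM. Within the 8 genes, APR1 lay close to APR3 (0.146) and ATPS3 (0.168) but farther from APR2 (0.429). SIR lay closest to ATPS1 (0.122), and ATPS2 to ATPS4 (0.159). The genes closest to APR1 were ST4B (0.126), SHM7 (0.135) and PLC5 (0.137), and SHM7 is on the list of sulfur-deficiency markers. Those closest to APR2 were LEA14 (0.067), PHI-1 (0.088) and CYP707A3 (0.097), and those closest to APR3 were MC7 (0.110), EDS5 (0.135) and TIFY10B (0.137). SIR was matched most closely by AGP15 (0.038), XT1 (0.039) and MPK17 (0.044), and ATPS1 by PEPKR1 (0.049), HAT1 (0.055) and GAE6 (0.058). For ATPS3 these were MYC2 (0.068), CYP81F3 (0.069) and ORA59 (0.079), for ATPS2 they were HTA7 (0.019), GGPS1 (0.024) and ARC5 (0.028), and for ATPS4 COR314-TM2 (0.017), EMF2 (0.017) and GSL12 (0.022). The difference is smaller for genes that move little, so the values for ATPS2 and ATPS4 rank genes that are nearly flat.

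Overlaps with neighbours on the opposite strand were short for the other genes: 21 bases for APR1, 27 for APR3, 117 for ATPS2, 16 for ATPS3 and 74 for ATPS4, with none for SIR and ATPS1. The neighbour of APR3, APG8A (AT4G21980), an autophagy gene, changed by -0.27 with nitrate in wild type, and that of ATPS2, AVA-P2 (AT1G19910), by -0.17 with starvation. Of windows of 50 bases along the reference transcripts, 0 recurred elsewhere in the nuclear genome for APR1, APR2, APR3, ATPS2 and ATPS4. The count was 1 each for ATPS1 and ATPS3 and 52 (1.59%) for SIR. Only exact repeats were searched, and how many reads of these genes were removed for equally good hits was not measured.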

How the data were processed

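RNA was measured in 18 libraries, 3 in each of 6 groups. The submitters' processing notes name Bowtie2 and the build TAIR10, and reads with equally good hits elsewhere were removed (1.9% to 2.17% of a library), per the file headers. The authors deposited whole-number counts for 33602 gene models and the length of each model. The labels and headers state neither versions nor annotation, nor whether strand was used. The analysis used edgeR 4.0.16 under R 4.3.3. After filterByExpr (count minimum 10, total minimum 15), 21347 genes were scaled by TMM and fitted over all libraries with 6 group means by a robust quasi-likelihood model (12 residual degrees of freedom, common biological coefficient of variation 0.129). The code was tested on simulated data. Adjusted p-values are Benjamini-Hochberg values over all genes tested. Depth, 14684639 to 25545031 counted reads, limits the precision of low levels only. No pair of libraries of a group agreed within sampling noise. Replicate numbers mark planting dates in the 13 libraries whose labels give one. The deviations of same-numbered libraries from their group means, over genes, correlated at -0.0698 to 0.554 over 45 pairs (median 0.201). The median for other numbers was -0.0888. Deviations cancel within a group, so that value is tied to the first and is no separate comparison. Nothing else says that the libraries came from separate cultures, and p-values measure the spread between them. Alternatives were RLE factors, DESeq2 1.42.0, no filter, the replicate block, only the groups compared, each library left out, and replicates 2 and 3 only. The members, the gene lists and the tests were chosen with earlier results of these data known. Named besides the members are NIR1, NIA1, NLP2, up to 3 called genes of a list with the smallest p, and the 3 genes closest in pattern among those with a symbol and at least 5 CPM; SULTR2;1, SOX, GSH2 and the neighbouring genes were added for their site, list or place. Sequences come from RefSeq TAIR10.1. The labels give the same planting to harvest span for groups that the protocol puts at 10 and 13 days.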

Additional observations from a re-analysis of the deposited data

How the results depend on the processing

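Over 24 alternatives, the 88 member values (8 genes in 11 comparisons) gave 2095 results that stayed on the same side of the threshold. In 7 a call was lost, in 10 one was gained, and 0 called values had the opposite sign. All 17 changes of call concern ATPS2 and ATPS3 with starvation. Values not called could change sign: APR2 with starvation in wild type, at -0.07, ran from -0.15 to 0.03. The number of members called with starvation in wild type went from 4 to 2 with replicates 2 and 3 only, and ranged from 3 to 4 when single libraries were left out. With starvation in nlp2 it was 2, and 2 to 4 when single libraries were left out; without untreated nlp2 replicate 3, ATPS2 (-0.36, adjusted p = 0.00577) and ATPS3 (0.43, adjusted p = 0.0455) were called. ATPS2 in nlp2 was also called with RLE factors (adjusted p = 0.0474), DESeq2 (0.0303) and no filter (0.0491). Leaving out a library of a group not compared gained calls as well. ATPS2 in nlp2 was called without untreated wild type replicate 1, 2 or 3 (edgeR, adjusted p = 0.0445, 0.0433 and 0.0293). ATPS3 in nlp2 was called without nlp2 nitrate replicate 3 (adjusted p = 0.0371). The replicate block (ATPS2 in nlp2 at -0.24, adjusted p = 0.0305) changed no other member call. The cause of these changes was not tested. Over all genes, calls for genotype were 77 untreated, 78 starved and 168 with nitrate. They were 157, 152 and 314 with DESeq2, 143, 137 and 360 with the block, and 17, 168 and 104 with only the groups compared. For the difference in response they were 0 and 0, 2 and 2 with DESeq2, and 1 and 0 with the block. With nitrate they were 262 with replicates 2 and 3 only. Leaving out single libraries of the groups compared gave as few as 35, 37 and 81.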
